A study of Solanum lycopersicum var. cerasiforme with 6 samples.

Results

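The 9 genes described here encode core transcription factors (TFs) of tomato ripening: MADS-RIN, NOR, CNR, TAGL1, LeFUL1, LeFUL2, LeHB-1, MADS1 and AP2a. They were chosen by gene identifier, with no expression threshold, and make up 9 of the 31571 entries of the table of all loci and 9 of the 1343 entries of the TF table. Mature green cherry tomatoes received an injection of 25 μL, which held 10 mM ABA, 1 mM nordihydroguaiaretic acid (NDGA, an inhibitor of ABA biosynthesis) or only distilled water (CK). They were kept at 20 °C and 90% relative humidity in the dark. Pericarp was sampled at day 9, with 2 libraries per group, each from RNA pooled from 10 fruits, and both libraries stand for harvests of successive weeks. Expression is given in FPKM (fragments per kilobase of transcript, scaled to the mapped fragments of a library), a scale on which genes of different length can be compared. The deposited table holds 1 value per gene and group, the authors' mean over both libraries. No spread between libraries, no read number per library and no number of fragments behind a value could be taken from it, so that no difference could be set against replicate error and no test was made.

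Tomato is a climacteric fruit, in which ripening is accompanied by a burst of ethylene. MADS-RIN, NOR and CNR are each known from mutants whose fruits fail to ripen normally, and MADS-RIN forms complexes with other MADS-box proteins at the promoters of ripening genes. ABA also accumulates around the onset of ripening, and the comparison with ABA and NDGA asks how the transcripts of these regulators stood in fruits given more ABA or an inhibitor of its synthesis. The study sampled day 9, near the breaker stage, because ripening then differed most clearly between the treatments. ABA-treated fruits were ahead and NDGA-treated fruits behind, so that treatment and ripening stage cannot be told apart here.

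Among the 7 activators of ripening, 6 had their highest level in ABA-treated fruits and their lowest level in NDGA-treated fruits, with CK in between. LeHB-1 showed the opposite order, which division by the column sum turns round unless it is read relative to the median of all loci. Of the 2 repressors, AP2a followed the 6 activators and MADS1 was lowest in ABA-treated fruits and about level in NDGA-treated fruits and CK. All directions named here hold relative to the median of all loci, a footing that a common scaling factor for a group leaves as it is. Of all loci with a mean FPKM of 1 or more, 52.8% were higher with ABA than in CK. The share was 53.2% for NDGA above CK and 49% for ABA above NDGA. Among TFs whose mean reached 50 FPKM, the shares were 61.5%, 41.9% and 62.8% in the same comparisons. None of the 9 genes was listed at 0 in any group, and the lowest mean over the 3 groups was the 65.6 FPKM of MADS1.

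MADS-RIN, the MADS-box factor of the ripening inhibitor locus, was listed at 1203 FPKM in ABA-treated fruits, 397 FPKM in NDGA-treated fruits and 672 FPKM in CK. Its level was thus 1.79-fold higher with ABA than in CK (log2 fold change 0.84), 1.69-fold lower with NDGA than in CK (−0.76) and 3.03-fold higher with ABA than with NDGA (1.60). The entry lies on chromosome 5 from 5216721 to 5231117 (SL2.40) and merges Solyc05g012020.2 with a second gene model, Solyc05g056620.1, so that the value is shared by both. In the RefSeq table, which rests on another assembly, MADS-MC stands close to RIN on chromosome 5, with 1 further model named for both genes. The share of the second model in the MADS-RIN value was not tested.

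The other MADS-box activators differed widely in the size of their ratios. LeFUL1 (TDR4, Solyc06g069430.2, chromosome 6 from 39564648 to 39572843), a FRUITFULL homolog and a partner of MADS-RIN, was listed at 920 FPKM with ABA, 232 FPKM with NDGA and 446 FPKM in CK. Its ratios were 2.06-fold higher with ABA than in CK (log2 fold change 1.04), 1.93-fold lower with NDGA than in CK (−0.95) and 3.97-fold higher with ABA than with NDGA (1.99), the widest range of the 9 genes. LeFUL2 (MBP7, Solyc03g114830.2), the second FRUITFULL homolog, was listed at 205 FPKM with ABA, 152 FPKM with NDGA and 165 FPKM in CK. Its log2 ratios were 0.31 for ABA over CK, −0.12 for NDGA over CK and 0.43 for ABA over NDGA. The ratio between both homologs was therefore not the same in the 3 groups, with LeFUL1 at 4.49 times LeFUL2 in ABA-treated fruits, 1.52 times in NDGA-treated fruits and 2.70 times in CK. Such a ratio within 1 group does not depend on how the groups are scaled. TAGL1 (Solyc07g055920.2, chromosome 7 from 61164694 to 61174720), an AGAMOUS-like factor that also acts in the expansion of the carpel wall, was listed at 274 FPKM with ABA, 138 FPKM with NDGA and 173 FPKM in CK. It was 1.59-fold higher with ABA and 1.25-fold lower with NDGA than in CK, and its ABA over NDGA ratio of 1.99 lay just short of 2.

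**Figure D1:**
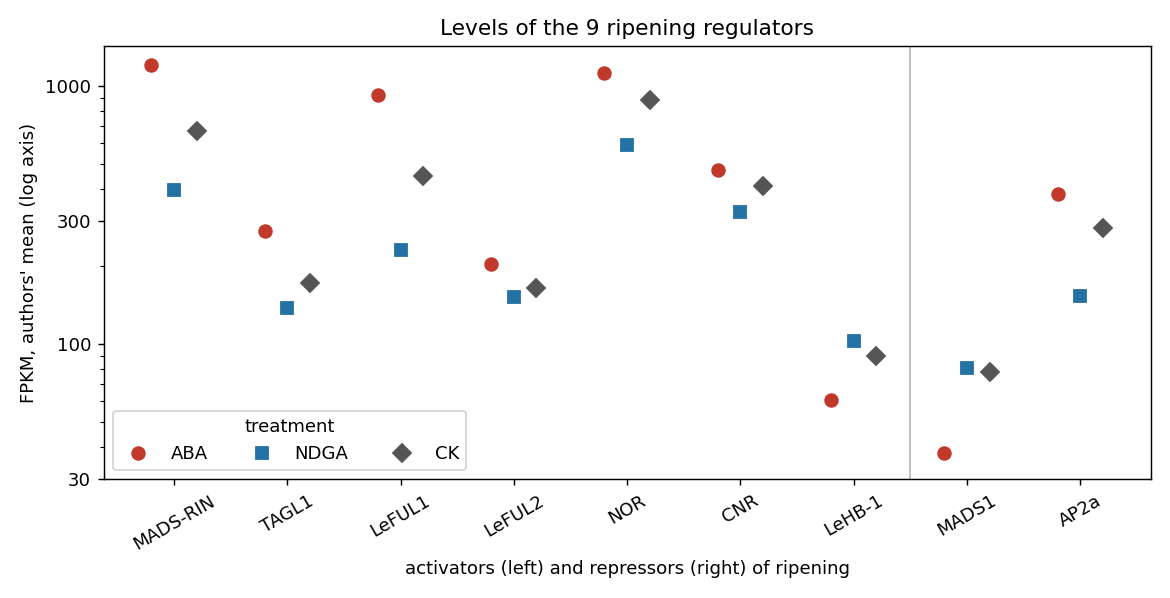
FPKM of the 9 regulators on a log axis, with 1 point for the authors' mean in ABA-treated (circles), NDGA-treated (squares) and CK fruits (diamonds) and no error, activators left of the grey line and repressors right of it. The ABA point is highest in 7 genes, while in LeHB-1 (60.7 FPKM) and MADS1 (37.8 FPKM) it is lowest.

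NOR and CNR belong to other TF families and showed smaller ratios than MADS-RIN and LeFUL1. NOR, the NAC factor of the non-ripening locus (Solyc10g006880.2, chromosome 10 from 1305619 to 1308574), was listed at 1126 FPKM with ABA, 592 FPKM with NDGA and 881 FPKM in CK. Its log2 fold changes were 0.35 for ABA over CK, −0.57 for NDGA over CK and 0.93 for ABA over NDGA. MADS-RIN was above NOR in ABA-treated fruits only, at 1.07 times its level, against 0.67 times in NDGA-treated fruits and 0.76 times in CK. CNR, the SBP-box factor of the Colorless non-ripening locus (Solyc02g077920.2, chromosome 2 from 37320746 to 37323446), was listed at 474 FPKM with ABA, 324 FPKM with NDGA and 411 FPKM in CK. The log2 fold changes of CNR were 0.21, −0.34 and 0.55 for ABA over CK, NDGA over CK and ABA over NDGA, which made it the activator with the smallest ABA over CK ratio in either direction. A second entry of the same gene, at the same coordinates, was listed at 191 FPKM with ABA, 166 FPKM with NDGA and 181 FPKM in CK. It ran in the same order with narrower ratios (log2 fold changes of 0.08, −0.12 and 0.21), and how the fragments of this locus were shared between its 2 entries was not tested.

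LeHB-1 (Solyc02g086930.2, chromosome 2 from 44097847 to 44101461), a homeodomain-leucine zipper (HD-ZIP) factor known to bind the promoter of the ethylene biosynthesis gene LeACO1, stood apart from the other activators. It was listed at 60.7 FPKM with ABA, 103 FPKM with NDGA and 89.9 FPKM in CK. The level was 1.48-fold lower with ABA than in CK (log2 fold change −0.57), 1.14-fold higher with NDGA than in CK (0.19) and 1.69-fold lower with ABA than with NDGA (−0.76). Another HD-ZIP gene with a similar name in the annotation, Solyc03g113270.2 (homeobox 1), ran the other way, at 1080 FPKM with ABA, 404 FPKM with NDGA and 569 FPKM in CK.

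The 2 repressors did not share a pattern. MADS1 (Solyc03g114840.2), a MADS-box factor that interacts with MADS-RIN, was listed at 37.8 FPKM with ABA, 80.7 FPKM with NDGA and 78.2 FPKM in CK. It was 2.07-fold lower with ABA than in CK (log2 fold change −1.05) and 2.14-fold lower with ABA than with NDGA (−1.10), while NDGA and CK differed by 0.05 on the log2 scale. AP2a (Solyc03g044300.2, chromosome 3 from 12742061 to 12746690), an APETALA2 factor that restrains ethylene production during ripening, was listed at 380 FPKM with ABA, 154 FPKM with NDGA and 281 FPKM in CK. Its log2 fold changes of 0.44 for ABA over CK, −0.87 for NDGA over CK and 1.31 for ABA over NDGA gave AP2a the second lowest NDGA over CK ratio of the 9 genes, after LeFUL1. MADS1 and LeFUL2 are neighbours on chromosome 3, LeFUL2 from 58752012 to 58758339 and MADS1 from 58767672 to 58773988, with 9333 bp between both loci and 0 gene models between them in the RefSeq table. Their levels nevertheless moved apart, with LeFUL2 at 5.43 times MADS1 in ABA-treated fruits, 1.88 times in NDGA-treated fruits and 2.11 times in CK.

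**Figure D2:**
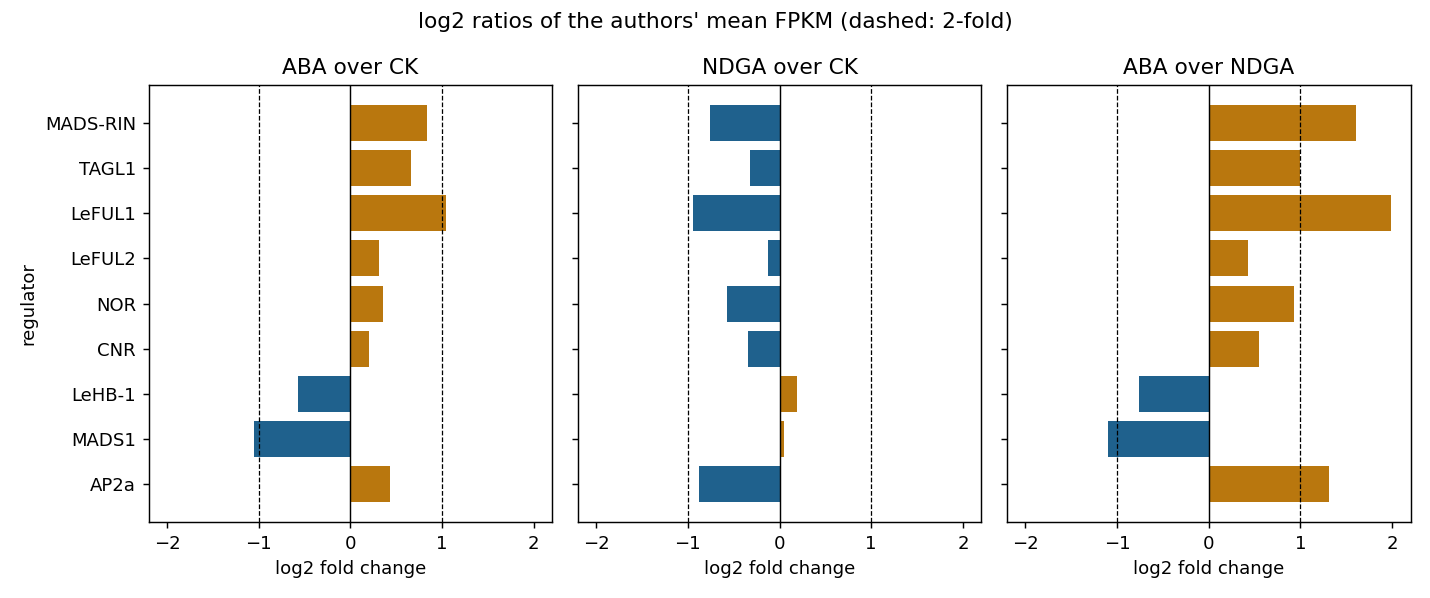
log2 ratios of the authors' mean FPKM of the 9 regulators for ABA over CK, NDGA over CK and ABA over NDGA, with dashed lines at 2-fold. LeFUL1 (1.04) and MADS1 (−1.05) are past 2-fold in ABA over CK, 0 genes are in NDGA over CK, and the signs are those relative to the median of all loci.

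A ratio of at least 2 in the authors' means was counted as past 2-fold. For ABA over CK, 1 of the 9 genes was past 2-fold upwards (LeFUL1) against 6.7% of all loci with a mean FPKM of 1 or more, and 1 was past it downwards (MADS1) against 10.5%. LeFUL1 lay so close to the threshold that its log2 fold change was 0.97 once each group was divided by the 75th percentile of its loci, which left 0 genes past 2-fold upwards. For NDGA over CK, 0 of the 9 genes passed 2-fold in either direction, against 8.79% of all loci upwards and 4.13% downwards. For ABA over NDGA, 3 genes passed it upwards (LeFUL1, MADS-RIN and AP2a) against 8.31% of all loci, and 1 downwards (MADS1) against 16.7%. With the median log2 ratio of all loci set to 0, TAGL1 passed as well (1.01), which made 4 genes upwards against 8.42% of all loci. The median log2 fold changes of the 9 genes were 0.35 for ABA over CK, −0.34 for NDGA over CK and 0.93 for ABA over NDGA, and those of all loci were 0.04, 0.03 and −0.01. The comparisons share their groups, so they are given side by side and are not independent of each other.

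The 9 regulators were also set beside the 131 TFs whose mean reached 50 FPKM, a bound chosen after the values were seen because every regulator lies above it. Of these, 130 had a ratio for ABA over CK and 129 for each of the other comparisons. For ABA over CK, 1.54% of these TFs were at least 2-fold higher, namely LeFUL1 and the HD-ZIP gene Solyc09g057540.2, and 3.08% were at least 2-fold lower, which are MADS1 and 3 others. For NDGA over CK the shares were 1.55% upwards and 0.775% downwards, with none of the 9 regulators among them. For ABA over NDGA, 9.3% of the TFs were at least 2-fold higher and 5.43% at least 2-fold lower. LeFUL1, MADS-RIN and AP2a were 3 of the 12 TFs that were higher, and MADS1 was 1 of the 7 that were lower. The median log2 fold change of these TFs was 0.12 for ABA over CK, −0.07 for NDGA over CK and 0.15 for ABA over NDGA, each nearer to 0 than that of the 9 regulators.

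**Figure D3:**
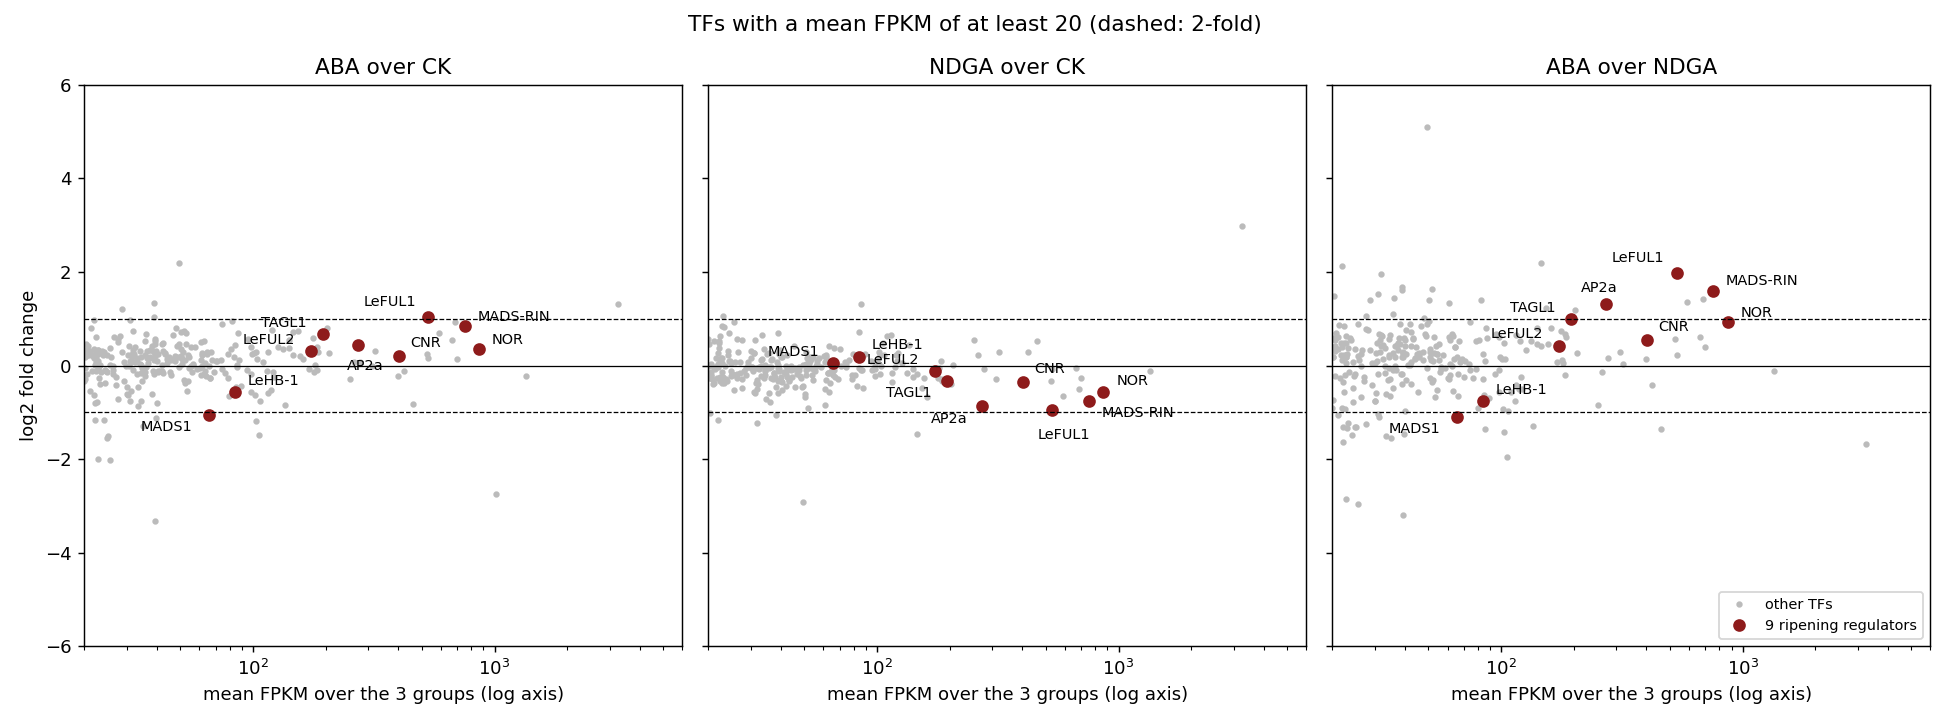
Mean FPKM over the 3 groups (log axis) against the log2 fold change of each comparison for the TFs whose mean reached 20 FPKM, with the 9 regulators in dark red, other TFs in grey and dashed lines at 2-fold; TFs listed at 0 in either group have no ratio and are left out (297, 296 and 296 of 299 are plotted). LeFUL1 (1.99) and MADS-RIN (1.60) stand above most TFs of their level in ABA over NDGA, while MADS1 (−1.10) and LeHB-1 (−0.76) lie below 0.

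By level, NOR, MADS-RIN, LeFUL1 and CNR were among the most abundant TF transcripts of the pericarp. NOR ranked 4 of 1343 TF entries in ABA-treated fruits, 5 in NDGA-treated fruits and 3 in CK. MADS-RIN ranked 3 with ABA, 11 with NDGA and 6 in CK, LeFUL1 ranked 6 with ABA, 20 with NDGA and 14 in CK, and CNR ranked 12, 16 and 15. AP2a ranked 15 with ABA, 29 with NDGA and 18 in CK. TAGL1 ranked 21, 39 and 31, and LeFUL2 kept nearly the same place, with ranks of 30, 31 and 33 in ABA-treated fruits, NDGA-treated fruits and CK. LeHB-1 ranked 108 with ABA, 58 with NDGA and 66 in CK. MADS1 shifted by the most places, though not by the largest factor, with rank 188 in ABA-treated fruits against 72 with NDGA and 74 in CK.

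The order of the 9 genes by FPKM differed little between the groups. In ABA-treated fruits it was MADS-RIN, NOR, LeFUL1, CNR, AP2a, TAGL1, LeFUL2, LeHB-1 and MADS1. In NDGA-treated fruits NOR was first, CNR stood above LeFUL1, and LeFUL2 stood above TAGL1. In CK the order was that of ABA-treated fruits except that NOR stood above MADS-RIN. Without a spread over libraries it cannot be said which neighbours in these orders differ. The closest neighbours were AP2a and LeFUL2 in NDGA-treated fruits, at a ratio of 1.01, against 1.86 in ABA-treated fruits and 1.70 in CK. TAGL1 stood at 1.34 times LeFUL2 in ABA-treated fruits, 0.90 times in NDGA-treated fruits and 1.04 times in CK.

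The TF entries above NOR and MADS-RIN include values that call for care. The ERF gene Solyc06g063070.2, annotated as related to AP2 12, was steady at 1249 FPKM with ABA, 1353 FPKM with NDGA and 1458 FPKM in CK. Solyc09g057540.2 (homeodomain GLABROUS 8) was listed at 2135 FPKM with ABA, 6785 FPKM with NDGA and 858 FPKM in CK, and Solyc09g060140.2 (homeodomain GLABROUS 11) at 398 FPKM with ABA, 0 with NDGA and 2649 FPKM in CK. The loci of both these HD-ZIP genes span 169275 bp and 113095 bp, and each has a second entry at the same coordinates, with values between 1.72 and 5.47 FPKM. When all TF entries that share coordinates with another entry were left out, the 9 regulators excepted, NOR ranked 3 and MADS-RIN ranked 7 in NDGA-treated fruits, and LeFUL1 ranked 9 in CK. Further TFs among the 5 highest of a group were the zinc finger gene Solyc02g087970.1 (mini zinc finger 2), at 259 FPKM with ABA, 659 FPKM with NDGA and 456 FPKM in CK, and the ERF gene Solyc01g065980.2, at 790 FPKM, 598 FPKM and 715 FPKM in the same groups.

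Ranked by log2 fold change among the TFs whose mean reached 1 FPKM, LeFUL1 was 42, MADS-RIN 66 and TAGL1 94 of 891 for ABA over CK, counted from the highest. AP2a was 151, NOR 192, LeFUL2 225 and CNR 300, while LeHB-1 was 676 and MADS1 771. For NDGA over CK, 4 of the 9 genes lay near the bottom of the 895 TFs. Counted from the lowest, LeFUL1 was 26, AP2a 33, MADS-RIN 44 and NOR 61. CNR followed at 122, TAGL1 at 132 and LeFUL2 at 274, and MADS1 at 431 and LeHB-1 at 539 lay in the middle of the distribution. For ABA over NDGA, LeFUL1 was 15, MADS-RIN 30, AP2a 49, TAGL1 75 and NOR 80 of 890 from the highest, whereas MADS1 was 195 and LeHB-1 255 from the lowest. Among TFs whose mean reached 10 FPKM, LeFUL1 moved to the top 1.74% for ABA over CK, against 4.71% before, and MADS-RIN to the top 3.91%, against 7.41%.

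Within their families, 5 of the 9 genes held 1 of the 3 highest places by level. MADS-RIN was the highest of 43 entries of the MIKC class of MADS-box genes in all 3 groups, and LeFUL1 was second with ABA and in CK and the third with NDGA. The highest MIKC gene outside the 9 was Solyc02g089200.2, at 330 FPKM with ABA, 270 FPKM with NDGA and 331 FPKM in CK. NOR was the highest of 69 NAC entries, ahead of Solyc11g017470.1 with 626 FPKM, 422 FPKM and 527 FPKM in ABA-treated fruits, NDGA-treated fruits and CK. CNR was the highest of 15 SBP entries, ahead of Solyc01g068100.2 with 169 FPKM, 126 FPKM and 144 FPKM in the same groups. AP2a was the highest of 18 AP2 entries and the next one, Solyc11g010710.1 (AINTEGUMENTA-like 6), was listed at 46.1 FPKM with ABA, 38.5 FPKM with NDGA and 52.7 FPKM in CK. LeHB-1 ranked between 5 and 7 of 61 HD-ZIP entries.

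The other genes of these families did not follow the 9 regulators as a whole. Among the 25 other MIKC entries whose mean reached 1 FPKM, the median log2 fold change was −0.10 for ABA over CK, 0.09 for NDGA over CK and −0.20 for ABA over NDGA, and for the last comparison 4 were at least 2-fold higher and 6 at least 2-fold lower. The 36 other NAC entries had medians of 0.03, 0.02 and −0.04 in the same comparisons, and NOR had the lowest NDGA over CK ratio of all 37. AP2a had the highest ABA over NDGA ratio of the 10 entries of its family, whereas the 9 others had a median of −1.57, with 6 at least 2-fold lower and 0 at least 2-fold higher. The medians of the 10 other SBP entries were 0.04, −0.12 and −0.05, and CNR had the second lowest NDGA over CK ratio of this family. For the other HD-ZIP entries the medians were −0.25 for ABA over CK, 0.27 for NDGA over CK and −0.50 for ABA over NDGA, the same signs as LeHB-1.

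The summed FPKM of the 9 genes was 4680 in ABA-treated fruits, 2171 in NDGA-treated fruits and 3198 in CK. It was 1.46-fold higher with ABA than in CK (log2 0.55), and the log2 ratio was −0.56 for NDGA over CK and 1.11 for ABA over NDGA. The sum over all TF entries differed far less, at 35389 FPKM with ABA, 35354 FPKM with NDGA and 32913 FPKM in CK. The 9 genes thus held 13.2% of the summed TF signal in ABA-treated fruits, 6.14% in NDGA-treated fruits and 9.72% in CK. The TF sum, and with it these shares, includes the 2 HD-ZIP entries that call for care. Solyc09g057540.2 adds 2135 FPKM with ABA, 6785 FPKM with NDGA and 858 FPKM in CK. Solyc09g060140.2 adds 398 FPKM, 0 and 2649 FPKM in the same groups, and sums without both entries were not formed. NOR, MADS-RIN and LeFUL1 made up 69.4% of the sum of the 9 genes with ABA, 56.2% with NDGA and 62.5% in CK. LeFUL1 alone made up 19.7% with ABA, 10.7% with NDGA and 14.0% in CK, and MADS1 0.807%, 3.72% and 2.45% in the same groups.

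**Figure D4:**
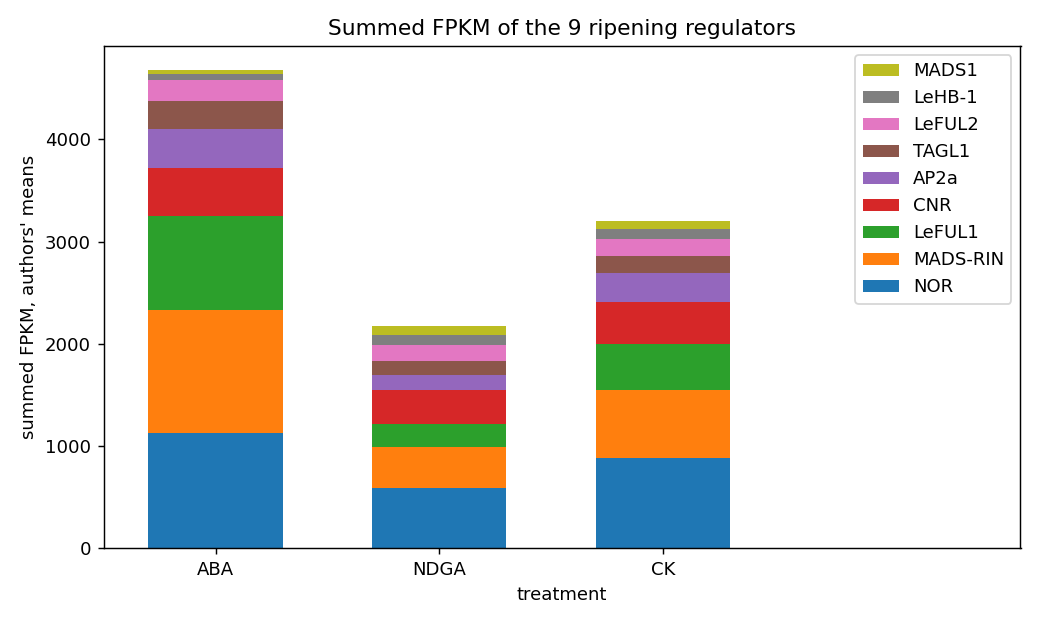
Summed FPKM of the 9 regulators in ABA-treated, NDGA-treated and CK fruits, as stacked bars of the authors' means without error. The bar reaches 4680 FPKM with ABA, 2171 FPKM with NDGA and 3198 FPKM in CK, and the MADS-RIN and LeFUL1 segments differ most between the bars.

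Ratios between regulators in the same fruits put these differences together. LeFUL1 stood at 24.4 times MADS1 in ABA-treated fruits, 2.87 times in NDGA-treated fruits and 5.71 times in CK. MADS-RIN stood at 31.9 times MADS1 in ABA-treated fruits, 4.91 times in NDGA-treated fruits and 8.59 times in CK. For MADS-RIN over LeHB-1 the values were 19.8 with ABA, 3.86 with NDGA and 7.47 in CK. MADS-RIN over AP2a changed little, at 3.16, 2.58 and 2.39 in ABA-treated fruits, NDGA-treated fruits and CK.

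**Figure D5:**
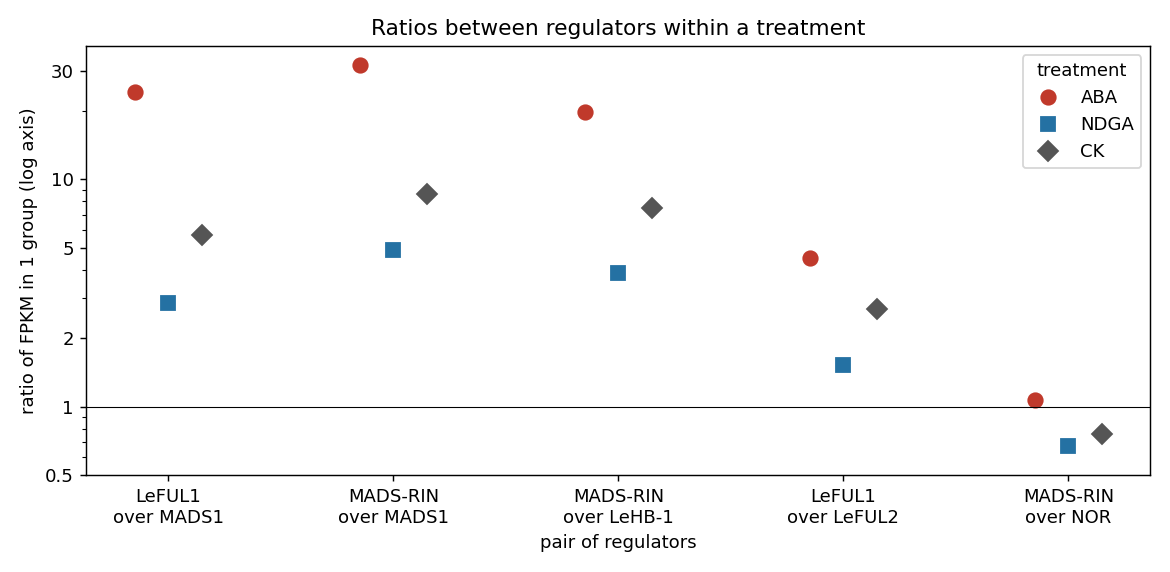
Ratio of FPKM between 2 regulators within ABA-treated (circles), NDGA-treated (squares) and CK fruits (diamonds), on a log axis without error, for 5 pairs. LeFUL1 over MADS1 covers the widest range of these pairs, with 24.4 in ABA-treated fruits, 2.87 in NDGA-treated fruits and 5.71 in CK.

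Likeness of pattern was measured as the Euclidean distance between the log2 FPKM of the 3 groups, each gene centred on its mean, and every regulator was compared with 564 other TF entries whose mean reached 5 FPKM. Entries at 0 in any group and entries that merge genes, MADS-RIN excepted, were left out. The 564 include the other regulators, while the nearest TF named is none of the 9. With 3 points per gene many TFs lie close to any pattern, and the nearest is given as a description. Among the 9 genes, LeFUL2 and CNR were the closest pair (0.16), followed by TAGL1 and NOR (0.23), NOR and CNR (0.27), and MADS-RIN and LeFUL1 (0.27). LeHB-1 and MADS1 were 0.35 apart and were each nearest to the other among the 9. LeFUL1 had the least common pattern, with 3 TFs within a distance of 0.25, of which the ARF gene Solyc05g047460.2 was nearest (0.16). The nearest to MADS-RIN was the WRKY gene Solyc02g021680.2, at 13.5 FPKM with ABA, 4.38 FPKM with NDGA and 7.86 FPKM in CK, and 11 TFs lay within 0.25. AP2a had 12 TFs within 0.25, with the nearest Solyc11g069190.1 (auxin response factor 4), and MADS1 had 19, with the nearest Solyc01g079360.2 (WRKY DNA-binding protein 35). The flatter patterns of LeFUL2 and CNR were shared by 170 and 129 TFs within the same distance, with Solyc12g056790.1 (NAC domain containing protein 17) and Solyc12g010330.1 (response regulator 12) the nearest. NOR was nearest to Solyc08g080120.2, TAGL1 to Solyc05g053090.1 and LeHB-1 to Solyc04g077220.2, with 47, 42 and 53 TFs within 0.25. With the bound for the mean raised to 20 FPKM, the nearest TFs of MADS-RIN, TAGL1, CNR and MADS1 were others.

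Genes known to be induced in ripening tomato were read beside the regulators. Of 14 genes listed, 11 were kept because the deposited annotation holds a word set for each. This word named only a broad class, oxygenase, for E8 and LeE8-6, and LeACO1 was kept as an ethylene-forming enzyme, while polygalacturonase, a pectate lyase and a cellulase were left out because their own names are not in it. For NDGA over CK all 11 were below 0 (median log2 fold change −0.98). Of them 5 were at least 2-fold lower, against 4.13% of all loci with a mean FPKM of 1 or more. For ABA over CK 9 of the 10 with a ratio were above 0 (median 0.85) and 2 were at least 2-fold higher, against 6.7% of all loci. For ABA over NDGA 10 of 10 were above 0 (highest 2.69), 8 of them at least 2-fold higher, against 8.31% of all loci. Over all 14 genes, a count added after the values were seen, 14 of 14 were below 0 for NDGA over CK, 11 of 12 with a ratio were above 0 for ABA over CK and 12 of 12 for ABA over NDGA. LeACS2, which makes the ethylene precursor, was listed at 678 FPKM with ABA, 114 FPKM with NDGA and 297 FPKM in CK. LeACO1, which turns that precursor into ethylene and whose entry merges 2 genes, was listed at 3828 FPKM with ABA, 593 FPKM with NDGA and 2157 FPKM in CK. Phytoene synthase, the entry enzyme of carotenoid synthesis, was listed at 5451 FPKM with ABA, 1339 FPKM with NDGA and 2795 FPKM in CK. E4, an ethylene-responsive gene used here with LeE8-6 and the expansin Solyc06g051800.2 as a marker of ripening pericarp, was listed at 11052 FPKM with ABA, 2149 FPKM with NDGA and 7288 FPKM in CK. LeE8-6 was listed at 3295 FPKM with ABA, 549 FPKM with NDGA and 1810 FPKM in CK, and the expansin at 720 FPKM, 652 FPKM and 730 FPKM in the same groups. E8 was listed at 0 in ABA-treated fruits, 7166 FPKM with NDGA and 11339 FPKM in CK. Polygalacturonase had also been set as a marker of ripening pericarp but was left out for its annotation. It was listed at 0 with ABA, 2309 FPKM with NDGA and 10575 FPKM in CK. In the whole table, 33 annotated entries were listed at 0 in 1 group and at 1000 FPKM or more in another. No ratio with ABA was therefore formed for E8 or polygalacturonase.

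Transcripts of genes annotated as seed proteins were present in these pericarp libraries and differed between the groups, although the study's methods state that seeds were taken out before the pericarp was frozen. The seed list, taken by annotation text, held 66 entries. Apart from the 19 entries described below, their annotation also holds the words bifunctional inhibitor, so that the list may reach beyond seed proteins. Of the 43 entries whose mean reached 1 FPKM, 34 were lower with ABA than in CK and 37 were higher with NDGA than in CK. Of all loci at that bound, 52.8% were higher with ABA than in CK and 53.2% higher with NDGA than in CK. The summed level of the seed list was 6529 FPKM with ABA, 40251 FPKM with NDGA and 11508 FPKM in CK. In these groups 15, 10 and 14 of its entries were at 0. The gene Solyc06g073660.2, near 0 with ABA and in CK, weighed heavily on the NDGA value, and without it the sums were 6529 FPKM with ABA, 28719 FPKM with NDGA and 11507 FPKM in CK. In the 19 entries whose annotation names an oleosin, a cruciferin or a seed storage albumin, a narrower set chosen after the values were seen, the sums were 3125 FPKM with ABA, 12765 FPKM with NDGA and 5643 FPKM in CK. Seed storage albumin 5 (Solyc08g080490.2) was listed at 961 FPKM with ABA, 5783 FPKM with NDGA and 2557 FPKM in CK. The order of these sums is that of LeHB-1 and of MADS1, which was about level in NDGA-treated fruits and CK. It is the reverse of that of MADS-RIN, LeFUL1, NOR, CNR, TAGL1, LeFUL2 and AP2a. The part that the source of these transcripts has in the values of the 9 regulators was not tested, and less RNA per cell cannot be told apart from fewer cells of a type.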

How the data were processed

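The authors aligned the reads with TopHat2 2.0.9 to the tomato genome SL2.40, used Cufflinks 2.1.1 and the annotation ITAG2.3 to compute FPKM, and averaged both replicates. These averages were deposited as 1 FPKM per locus and group. Columns with the authors' calls of significance and direction were not used, nor was a table of ABA-related genes. The TF tables disagreed with the full table in 0 entries.

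Fold changes are ratios without a pseudocount, and entries at 0 in either group were given none. Named genes are the 9 regulators, the 5 highest TFs of each group, the nearest TF by pattern, the highest other gene of each family, and the listed ripening genes, with the seed genes named after their values were seen. The 9 genes, the lists and the rules were chosen with earlier results of these data known. Coordinates are as deposited, and RefSeq gave neighbouring genes only. Python 3.11.15, numpy 2.4.6, pandas 2.3.3 and matplotlib 3.10.9 were used, and the counting was tested on simulated data. The number of fragments behind a value, and so its precision, is unknown. Values per library were not analysed here, so limma and analyses by replicate could not be run. Scalings, pseudocounts, thresholds and filters were varied.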

Additional observations from a re-analysis of the deposited data

Results flagged for a closer look

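A signal outside the comparisons of the regulators was seen in the genes annotated as oleosin, cruciferin or seed storage albumin, whose summed FPKM in pericarp was 3125 with ABA, 12765 with NDGA and 5643 in CK. It was marked because the NDGA value lies above CK. All 19 entries were higher with NDGA than in CK, against 53.2% of all loci with a mean FPKM of 1 or more. The 19 entries were chosen after the values were seen, and some genes hold several of them. The difference between NDGA and CK was not tested, since only the authors' means are at hand.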

How the results depend on the processing

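No paired analysis was possible because each deposited column is the authors' mean over both libraries, and leaving out a replicate and the replicate block were not run for the same reason. Division by the column sum, of which the 10 highest entries hold 59.9% in ABA, 32.2% in NDGA and 63.1% in CK, shifted the median of all loci by 0.83 (ABA over CK), −1.40 (NDGA over CK) and 2.23 (ABA over NDGA). On that scale the medians of the 9 genes were 1.18, −1.74 and 3.16 and the log2 ratios of their sums 1.38, −1.96 and 3.34. Then 7 genes were at least 2-fold higher for ABA over CK (37.8% of all loci) and 9 for ABA over NDGA (86.6%), and 0 (4.29%), 9 (77.3%) and 0 (2.12%) at least 2-fold lower for ABA over CK, NDGA over CK and ABA over NDGA. Signs changed for LeHB-1 in all 3 comparisons (0.26, −1.21 and 1.47). They also changed for MADS1 for NDGA over CK (−1.36) and ABA over NDGA (1.13). The column sums themselves were 1.32e+07 FPKM with ABA, 6.18e+07 FPKM with NDGA and 2.34e+07 FPKM in CK. The 75th percentiles of entries above 0 lay closer together, at 22.3, 21.0 and 21.2 FPKM in the same groups. Relative to the shifted median, MADS1 stood at −1.09 for ABA over CK and −1.08 for ABA over NDGA, and 7 of the 9 genes stayed above the median in both. At a log2 threshold of 0.5, 3 genes were higher (16.7% of all loci) and 2 lower (20.1%) for ABA over CK, 4 lower (10.5%) for NDGA over CK, and 6 higher (20.1%) and 2 lower (27.8%) for ABA over NDGA. At a threshold of 1.5, 0 were higher (3.57%) and 0 lower (6.05%) for ABA over CK and 0 lower (10.3%) for ABA over NDGA. Division by the 75th percentile, added after seeing the data, left 0 genes higher for ABA over CK (6.16%). Pseudocounts of 0.1 and 1, rescaling to a median of 0, and the 75th percentile each moved all 27 fold changes by less than 0.25, as did summing both CNR entries for CNR. Leaving out MADS-RIN moved medians and summed ratios by less than 0.25. Among TFs with a mean FPKM of 10 or more, ranks by fold change moved to 1.74% (LeFUL1) and 3.91% (MADS-RIN) from the top for ABA over CK, 25% (LeHB-1) for NDGA over CK, and 0.871% (LeFUL1) and 1.96% (MADS-RIN) for ABA over NDGA, and with no filter LeFUL1 moved to 2.67% for ABA over NDGA. With the entries of a gene summed, CNR ranked 9 with NDGA and 8 in CK. With a mean FPKM of at least 20, 5 of 9 nearest TFs stayed the same, and those of MADS-RIN, TAGL1, CNR and MADS1 did not.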
